A study of Rattus norvegicus with 98 samples.

Results

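The aminoacyl-tRNA synthetases of the cytosol and of the mitochondrion were described in rat nasal epithelium after formaldehyde, by dose, route and time. The list held 37 genes: 19 genes of cytosolic enzymes or their subunits, 15 genes of mitochondrial enzymes (symbols ending in ars2) and 3 genes of proteins that hold cytosolic enzymes together in a complex. A probe set, the array's unit of measurement, was taken for each gene, namely the one with the highest mean over all 98 arrays. This gave values for 35 of the 37 genes, of 14217 genes with a probe set of their own on the array. Lars2 had no probe set in the annotation used, and the only probe set of Mars2 listed several genes, so both were left out.

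All animals were male F344/NCrl rats, 8 weeks old, and each gave 1 array. Inhalation was by whole-body exposure, 6 h a day and 5 days a week. In a first set of 82 arrays the concentrations were 0 (air), 0.7, 2 and 6 ppm, with collection 6 h, 24 h, 5 days, 8 days or 19 days after exposure began. A second set of 16 arrays, all collected at 6 h, held 4 groups: air, 15 ppm inhaled, distilled water instilled at 40 ul per nostril, and 400 mM formaldehyde instilled in the same volume. Of the 24 groups, 22 had 4 animals, and air at 8 days and 2 ppm at 5 days had 5. Each dose was compared with the air group of its own time and array set, and instilled formaldehyde with instilled water. The 0.7, 2 and 6 ppm groups of a time share their air animals, so their differences from air are not independent of each other.

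An aminoacyl-tRNA synthetase joins an amino acid to the transfer RNA that carries it to the ribosome. The cytosol and the mitochondrion have largely separate sets of these enzymes, and most mitochondrial ones are encoded by nuclear genes of their own, while Gars1 (glycine) and Kars1 (lysine) each serve both compartments. In the cytosol several enzymes, among them those for glutamate and proline (Eprs1, one protein with both activities), isoleucine (Iars1), methionine (Mars1) and arginine (Rars1), sit in the multisynthetase complex, which is held together by Aimp1, Aimp2 and Eef1e1. Many genes of cytosolic synthetases are known targets of the transcription factor Atf4, which is made when phosphorylation of the initiation factor eIF2 slows general translation, as on shortage of amino acids or stress in the endoplasmic reticulum.

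Atf4 binds, with a partner of the C/EBP family, an element spelled TGATGNAA in the search used here. The promoter sequences of RefSeq (assembly GRCr8), 250 bases before to 50 bases after each gene's start, were searched for it on both strands. The element was present in 1332 of 33469 promoters (3.98%). Among the members it was present in 7 of the 35 promoters in the RefSeq table (20%), in 7 of the 20 of cytosolic enzymes and scaffold proteins (35%), and in 0 of the 15 of mitochondrial enzymes. Those with a match were Aars1, Cars1, Iars1, Mars1, Nars1, Tars1 and Yars1. Of the 6 genes with an entry that rose after both 15 ppm inhaled and 400 mM instilled formaldehyde (described after this), 3 had it (50%): Nars1, Tars1 and Yars1. The matches in these 3 are shown because their genes rose in both comparisons. Aimp1, Aimp2 and Eef1e1 rose in both too and had no match. Of the other genes with a match, Mars1 rose at 15 ppm only. After instillation only, Cars1 rose and Iars1 fell, and Aars1 was called in neither comparison. The Nars1 sequence is chr18:60275783-60276032 on the minus strand and the Tars1 sequence is chr2:62114803-62115052 on the minus strand. Both are the 250 bases before the start, 5′ to 3′ in the direction of the gene. The Yars1 sequence is the 30 bases at chr5:146820183-146820212 on the plus strand, which lie after the start. Capitals mark the match, and in Tars1 it reads on the strand opposite to the gene.
Nars1: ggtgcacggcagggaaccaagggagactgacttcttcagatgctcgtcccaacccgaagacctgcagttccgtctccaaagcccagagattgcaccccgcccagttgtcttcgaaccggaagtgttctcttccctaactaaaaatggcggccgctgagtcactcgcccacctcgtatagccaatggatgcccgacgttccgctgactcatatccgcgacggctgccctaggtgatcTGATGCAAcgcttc
Tars1: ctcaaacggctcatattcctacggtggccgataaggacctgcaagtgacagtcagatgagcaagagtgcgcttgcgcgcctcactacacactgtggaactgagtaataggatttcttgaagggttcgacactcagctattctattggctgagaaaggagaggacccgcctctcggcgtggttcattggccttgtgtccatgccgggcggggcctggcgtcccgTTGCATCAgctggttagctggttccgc
Yars1: cggagctacgagctcagcTGATGCAAcctg
A match is a string of letters in this window and was not tested as a binding site. Rars1 and Gars1 had no entry.

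The deposited values are on a log2 scale, so a difference of 1 is a 2-fold change, and levels of different probe sets cannot be set against each other. Over the 98 arrays the means of the chosen probe sets ran from 7.61 (Vars1) to 10.81 (Qars1) for the cytosolic enzymes and from 5.03 (Nars2) to 7.81 (Tars2) for the mitochondrial enzymes. Array medians lay between 5.935 and 6.074. Markers of the nasal lining were present (mean log2 values Krt5 12.02, Foxj1 9.61, Bpifa1 14.57). The labels state that olfactory epithelium was discarded, but its markers were present too (Omp 11.96, Obp1f 14.04). In such bulk samples, fewer cells of a type and less RNA per cell cannot be told apart.

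At 6 h after 15 ppm began, genes of several cytosolic synthetases and of all 3 scaffold proteins rose, and genes of 3 mitochondrial synthetases fell. A gene was called when its adjusted p in limma, over 31042 probe sets, was under 0.05. Of the 35 members 11 were called (31.4%), 8 up and 3 down, against 8.49% of all probe sets (4.32% up and 4.17% down). Over all 14217 genes with 1 probe set each, as taken for the members, 5.23% were up and 5.86% down. Of the 19 cytosolic genes 5 rose and 0 fell, of the 13 mitochondrial genes 0 rose and 3 fell, and of the 3 scaffold genes 3 rose. Among all called probe sets 50.8% were up as deposited and 62.7% after cyclic loess between arrays, and after loess the 11 called members kept their signs, with the 8 still called up and Fars2 still called down.

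Nars1, the asparagine enzyme, had log2 values of 9.94, 10.25, 10.28 and 10.29 in the 4 air animals and 10.54, 10.58, 10.58 and 10.66 in the 4 animals at 15 ppm. The groups did not overlap, and animal 325 of the air group stood below the other air animals. The difference was 0.40 ± 0.07 (SE, n = 4 per group, adjusted p = 5.31e-06, limma) and 0.32 without animal 325. Tars1, the threonine enzyme, was at 8.42, 8.51, 8.53 and 8.56 in air and at 8.94, 8.94, 9.0 and 9.0 at 15 ppm. It too had no overlap, with a difference of 0.47 ± 0.08 (adjusted p = 2.61e-05). Rars1, the arginine enzyme of the complex, read 9.29, 9.41, 9.43 and 9.51 in air against 9.88, 9.91, 9.92 and 10.01, a difference of 0.52 ± 0.14 (adjusted p = 0.0065). Every exposed animal lay above every air animal for these genes. Among the 35 members, 8 had all exposed animals above all air animals (8.02% of all probe sets) and 4 had them all below (8.31%).

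The remaining cytosolic calls were smaller. Mars1, the methionine enzyme, was at 8.66, 8.70, 8.72 and 8.74 in air and at 8.78, 8.89, 9.03 and 9.15 at 15 ppm. The groups were apart, but the call (0.26 ± 0.07, adjusted p = 0.00982) ended without animal 341 of the 15 ppm group (0.19, adjusted p = 0.108) and was not shared by its other probe set (0.01, adjusted p = 0.978). Yars1, the tyrosine enzyme, ran from 9.06 to 9.34 in air and from 9.29 to 9.52 at 15 ppm. Its groups overlapped, and the difference of 0.22 ± 0.07 (adjusted p = 0.0413) was no longer called without any 1 of the air animals 321, 322 and 323 or of the 15 ppm animals 338, 341 and 342, with adjusted p from 0.0546 to 0.196. Cars1, the cysteine enzyme, was apart between the groups at 8.22 to 8.30 against 8.31 to 8.48, with a difference of 0.13 (adjusted p = 0.348). The other 13 cytosolic genes that were not called had differences from -0.17 to 0.12.

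All 3 scaffold genes rose. Aimp1 had values of 8.68, 8.74, 8.75 and 8.79 in air and 9.08, 9.09, 9.14 and 9.16 at 15 ppm, a difference of 0.38 ± 0.08 (adjusted p = 0.000438). Its other probe set gave 0.31 (adjusted p = 0.00949). Aimp2 was at 8.60, 8.66, 8.66 and 8.67 in air and at 8.88, 9.02, 9.06 and 9.09 at 15 ppm (0.37 ± 0.09, adjusted p = 0.00253). Eef1e1 was at 9.53, 9.79, 9.82 and 9.92 in air and at 10.27, 10.29, 10.31 and 10.35 at 15 ppm (0.54 ± 0.09, adjusted p = 1.46e-05). None of the 3 overlapped between the groups. With the 4 air animals of the 82-array set as control, Aimp2 was still called at 0.34, while Aimp1 (0.11, adjusted p = 0.354), Eef1e1 (0.19, adjusted p = 0.151), Rars1 (0.33, adjusted p = 0.0864) and Yars1 (0.18, adjusted p = 0.0707) were not. Nars1 (0.37) and Tars1 (0.41) stayed called against those animals.

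In the mitochondrial set the phenylalanine enzyme Fars2 was at 6.93, 6.98, 7.07 and 7.13 in air and at 6.27, 6.54, 6.61 and 6.66 at 15 ppm. It fell by 0.51 ± 0.09 (SE, adjusted p = 4.98e-05), with no overlap, and by 0.61 when the first set's air animals were the control. Rars2, the arginine enzyme, was at 7.87, 7.88, 7.90 and 7.92 in air and at 7.49, 7.58, 7.60 and 7.76 at 15 ppm, a change of -0.29 ± 0.08 (adjusted p = 0.0153). Its groups were apart, but its call ended without animal 342 of the 15 ppm group (-0.25, adjusted p = 0.0871) and after cyclic loess (-0.21, adjusted p = 0.0732). Cars2, the cysteine enzyme, was at 6.64, 6.73, 6.79 and 6.92 in air and at 6.25, 6.37, 6.55 and 6.60 at 15 ppm. These groups were also apart (-0.33 ± 0.11, adjusted p = 0.0346), but the call ended without any 1 of the 15 ppm animals 337 and 342 or the air animals 321, 323 and 325, with adjusted p from 0.0554 to 0.179. Tars2, the threonine enzyme, was lower in all 4 exposed animals but was not called (-0.19, adjusted p = 0.123). The median change was -0.19 over the 13 mitochondrial genes (-0.12 without animal 341 of the 15 ppm group), 0.03 over the 19 cytosolic genes (-0.01 without air animal 323), 0.38 over the 3 scaffold genes and -0.02 over all genes. After cyclic loess the mitochondrial median was -0.11 and the cytosolic median 0.09. On the deposited scale 10 of 19 cytosolic changes were positive and 9 of the 13 mitochondrial changes were negative. The RNA integrity number, a measure of RNA quality, ran from 7.3 to 7.8 in the air animals and from 7.7 to 8.2 at 15 ppm. With it as a covariate, which leaves out the 13 arrays without a value, the 11 called members all stayed called.

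**Figure D1:**
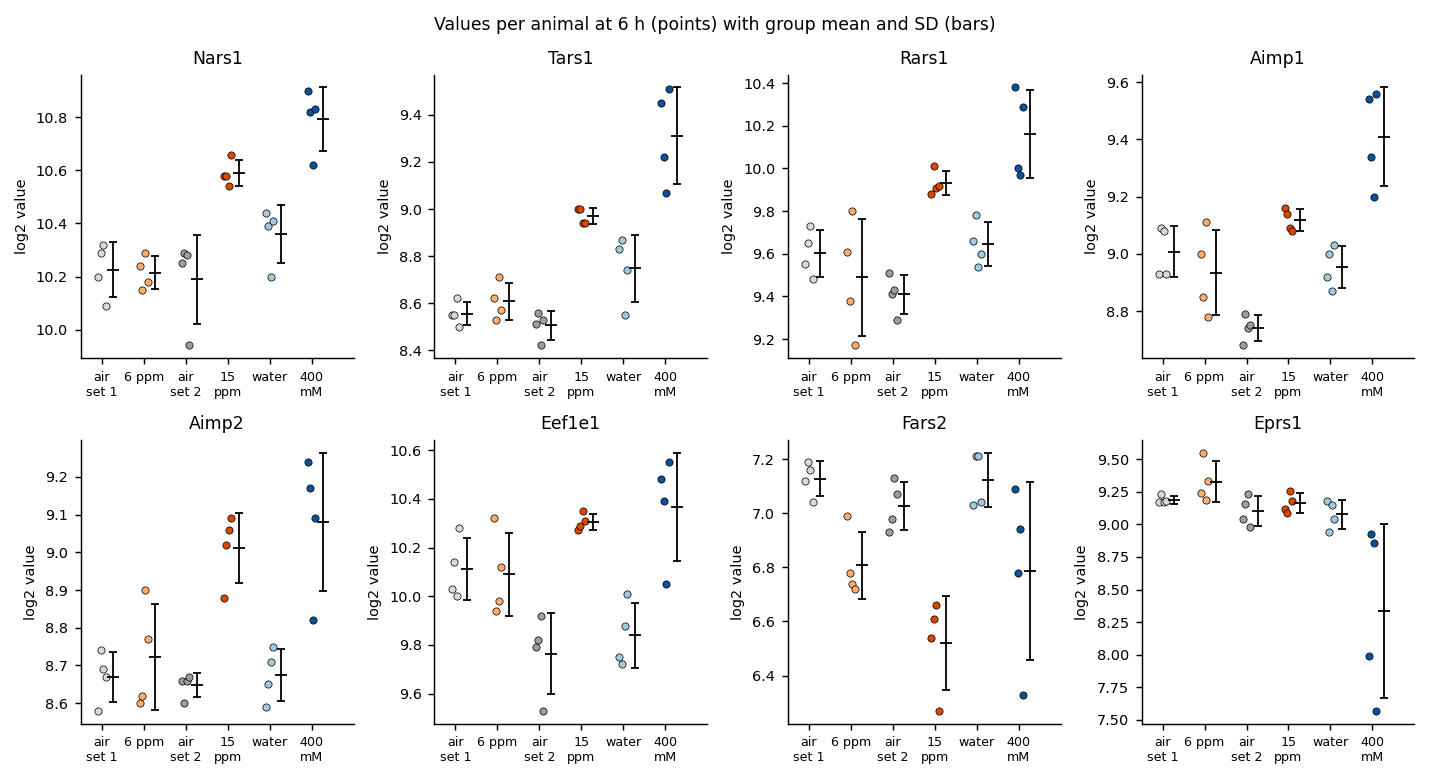
Log2 values of 8 members in each animal (points) at 6 h, with group means and SD, each panel on its own scale; groups are air and 6 ppm of the first array set and air, 15 ppm, instilled water and instilled 400 mM formaldehyde of the second. Nars1, Tars1, Rars1, Aimp1, Aimp2 and Eef1e1 stand higher at 15 ppm than in the second set's air group, Fars2 stands lower, and Eprs1 is low in the instilled formaldehyde group, where 2 animals lie at 7.57 and 7.99.

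Instilled formaldehyde gave higher values of most of the same cytosolic and scaffold genes, measured against water, a control group it does not share with the 15 ppm comparison. Of 35 members 13 were called (37.1%), 8 up and 5 down, against 22.2% of all probe sets (9.83% up and 12.4% down). Over all genes with 1 probe set each, 11.1% were up and 15.1% down. Of the cytosolic genes 5 rose and 2 fell, of the mitochondrial genes 0 rose and 3 fell, and all 3 scaffold genes rose. The share of up calls among all called probe sets was 44.3% as deposited and 53.4% after cyclic loess. Called up in both comparisons were 7 members (Nars1, Tars1, Rars1, Yars1, Aimp1, Aimp2, Eef1e1), and called down in both were 2 (Fars2, Cars2). Of the 35 members, 7 had all formaldehyde animals above all water animals (8.94% of all probe sets) and 3 had them all below (9.76%).

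Tars1 was at 8.55, 8.74, 8.83 and 8.87 after water and at 9.07, 9.22, 9.45 and 9.51 after formaldehyde, with no overlap (0.56 ± 0.08, SE, n = 4 per group, adjusted p = 9.58e-08, limma). Nars1 was at 10.20, 10.39, 10.41 and 10.44 after water and at 10.62, 10.82, 10.83 and 10.90 after formaldehyde (0.43 ± 0.07, adjusted p = 2.5e-07). Rars1 went from 9.54, 9.60, 9.66 and 9.78 to 9.97, 10.00, 10.29 and 10.38 (0.51 ± 0.14, adjusted p = 0.0028). In these 3 genes all instilled formaldehyde animals lay above all water animals. Yars1 was at 9.13, 9.21, 9.22 and 9.24 after water and at 9.27, 9.41, 9.42 and 9.52 after formaldehyde, also apart (0.20 ± 0.07, adjusted p = 0.0275). That call ended without animal 369 or 374 of the formaldehyde group or 356 of the water group, with adjusted p from 0.0571 to 0.134. Cars1 was at 8.09, 8.15, 8.19 and 8.38 after water and at 8.32, 8.44, 8.51 and 8.60 after formaldehyde. Its groups overlapped by 1 water animal (0.27 ± 0.08, adjusted p = 0.00572), and its other probe sets gave 0.40 (adjusted p = 2.8e-05), 0.15 (0.489) and 0.16 (0.264). Mars1, called at 15 ppm, was at 0.12 (adjusted p = 0.218).

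The scaffold genes were again apart between the groups. Aimp1 was at 8.87, 8.92, 9.0 and 9.03 after water and at 9.20, 9.34, 9.54 and 9.56 after formaldehyde (0.45 ± 0.08, adjusted p = 4.69e-06). Aimp2 was at 8.59, 8.65, 8.71 and 8.75 against 8.82, 9.09, 9.17 and 9.24 (0.41 ± 0.09, adjusted p = 0.000224). Eef1e1 was at 9.72, 9.75, 9.88 and 10.01 against 10.05, 10.39, 10.48 and 10.55 (0.53 ± 0.09, adjusted p = 7.83e-06). Every instilled animal exceeded every water animal in all 3 genes, and their median change was 0.45.

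Eprs1, the glutamate and proline enzyme, went the other way. It was at 8.94, 9.04, 9.15 and 9.18 after water and at 7.57, 7.99, 8.86 and 8.93 after formaldehyde. The groups were apart, but the spread came from animals 374 (7.57) and 365 (7.99), while the other 2 lay just below the water animals. It fell by 0.74 ± 0.14 (adjusted p = 3.09e-05), and by 0.49 to 0.94 with 1 animal left out in turn. In a fit of the compared arrays alone the same change was not called (adjusted p = 0.12). Its other probe sets gave -0.99 (adjusted p = 8.56e-05), -0.20 (0.0572) and 0.11 (0.52), so the decline was not seen over all of them. Iars1, the isoleucine enzyme, was at 8.33, 8.39, 8.43 and 8.48 after water and at 7.85, 7.87, 8.10 and 8.15 after formaldehyde. It fell by 0.41 ± 0.13 (adjusted p = 0.0109) with no overlap, but not without animal 374 (-0.37, adjusted p = 0.0546), after cyclic loess (-0.30, 0.0797) or at its other probe set (-0.19, 0.185).

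Of the mitochondrial genes, Cars2 was at 6.66, 6.69, 6.69 and 6.88 after water and at 6.01, 6.24, 6.34 and 6.49 after formaldehyde, without overlap (-0.47 ± 0.11, adjusted p = 0.00044). Fars2 was at 7.03, 7.04, 7.21 and 7.21 after water and at 6.33, 6.78, 6.94 and 7.09 after formaldehyde. These groups overlapped, and the call (-0.34 ± 0.09, adjusted p = 0.00422) ended without animal 374 of the formaldehyde group (-0.19, adjusted p = 0.16). Vars2, the valine enzyme, was at 6.61, 6.83, 7.04 and 7.20 after water and at 5.89, 6.35, 6.35 and 7.25 after formaldehyde. The groups overlapped (-0.46 ± 0.16, adjusted p = 0.0252), and 1 formaldehyde animal was above all water animals. The call ended without any 1 of the formaldehyde animals 365, 369 and 374 or the water animals 354 and 356, with adjusted p from 0.0669 to 0.286, and against the second set's air animals the difference was -0.06 (adjusted p = 0.81). The mitochondrial median was -0.16 (-0.08 without water animal 354, -0.09 without formaldehyde animal 369), the cytosolic median 0.02 (-0.02 without water animal 355) and that of all genes 0.00. With cyclic loess these medians were -0.05 and 0.11, and against the second set's air animals -0.05 and 0.15. On the deposited scale 10 of 19 cytosolic changes were positive. The RNA integrity number was 7.5 to 8.3 after water and 8.3 to 8.4 after formaldehyde.

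**Figure D2:**
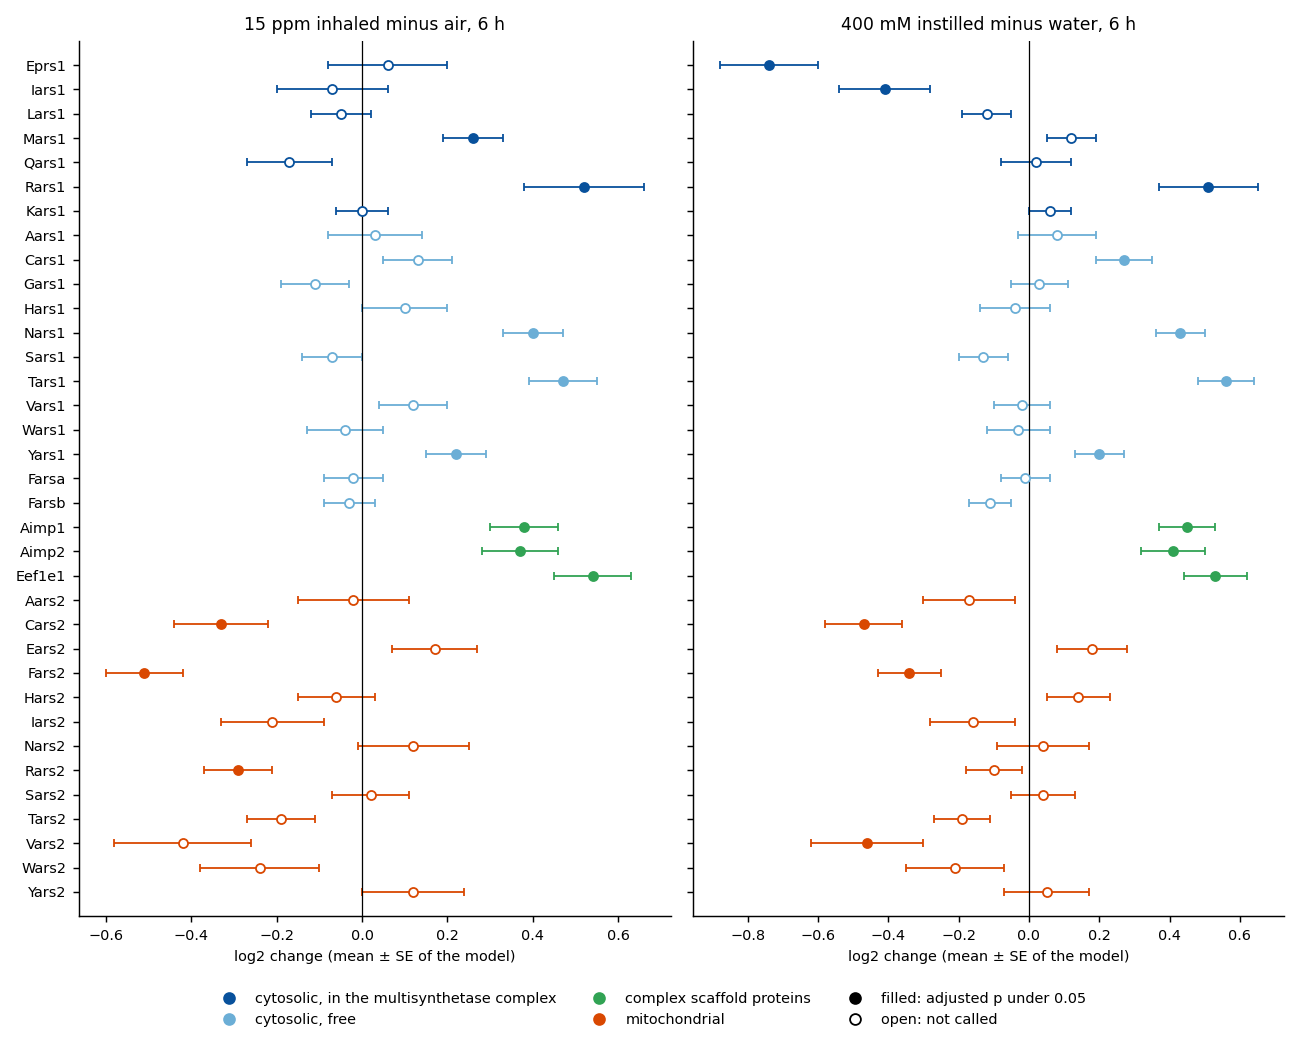
Log2 change of each of the 35 members at 6 h after 15 ppm inhaled (against air) and after 400 mM instilled (against water), with SE of the limma fit; filled symbols are called at an adjusted p under 0.05. All 3 scaffold genes lie right of 0 at both exposures (0.37 to 0.54), and Eprs1 has the lowest value drawn, -0.74 at instillation.

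The inhaled and the instilled effects were compared directly, as the 15 ppm difference minus the instillation difference. Of the members 1 was called, Eprs1 (0.879% of all probe sets, 0.325% in this direction), with 0.80 ± 0.20 (adjusted p = 0.0256). Its other probe sets were not called, at 0.15 (adjusted p = 0.758), 0.96 (0.0835) and 0.13 (0.887). The call of the chosen one ended without any 1 of animals 321, 325, 341, 352, 355, 365 and 374 (0.54 to 0.78, adjusted p from 0.0559 to 0.241), the lowest value being without the instilled animal 374. For the genes that rose by both routes the differences were small with errors of like size or larger: -0.03 ± 0.09 for Nars1, -0.10 ± 0.12 for Tars1, 0.01 ± 0.19 for Rars1, -0.08 ± 0.11 for Aimp1, -0.04 ± 0.12 for Aimp2 and 0.02 ± 0.13 for Eef1e1. These do not show that the routes acted alike. Water instillation alone, against air, gave 0 called members in limma (0.0129% of all probe sets), with 8 at an unadjusted p under 0.05. Still, 27 of the 35 differences were positive, with a median of 0.09 against 0.00 for all probe sets, and Tars1 was at 0.24 (adjusted p = 0.303). Cell markers also differed between water and air. All 8 olfactory markers were lower (median -1.3, 0 called in limma, 7 at an unadjusted p under 0.05), and all 7 neutrophil markers were higher (median 0.41, 0 called). The log2 of the summed olfactory level was 14.61 to 15.33 in air, 13.95 to 14.56 after water and 14.15 to 14.40 after instilled formaldehyde. The part of these cells was not tested.

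The neutrophil markers differed in the same comparisons. Of 7 such genes, 4 rose at 15 ppm (S100a8, S100a9, Csf3r and Cxcr2, median change over the 7 of 1.14) and 6 after instillation (median change 2.35). The log2 of their summed level ran from 9.64 to 10.45 in air and from 11.85 to 12.14 at 15 ppm, and from 10.48 to 11.26 after water and from 12.92 to 13.80 after instilled formaldehyde, with no overlap in either pair. Of 6 ciliated-cell markers 2 fell after instillation (Foxj1 by 0.66, Dnali1 by 0.60), with summed levels of 13.38 to 13.66 after water and 13.14 to 13.36 after formaldehyde. Of all probe sets 4.32% were called up at 15 ppm, and 9.83% up and 12.4% down after instillation. Among 10 lymphocyte markers 2 rose after instillation (Ptprc, Cd3e), with summed levels of 10.11 to 10.13 after water and 10.51 to 10.91 after formaldehyde. Among 9 stroma and vessel markers 1 fell (Col1a1), a share near that of all probe sets, and the median change was -0.05. Their summed levels were 14.16 to 14.67 after water and 13.89 to 14.06 after formaldehyde. Neither pair of summed levels overlapped. Called up after instillation as well were 3 of 12 macrophage and dendritic markers, 2 of 10 secretory and 1 of 9 basal and squamous markers. The last share was near that of all probe sets. No marker was at 0, and the part of these cells in the synthetase changes was not tested.

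At 6 ppm, inhaled with the same daily schedule, the genes that rose at 15 ppm were not called at any of 5 times, and the calls were in mitochondrial genes. At 6 h, 1 member was called (2.86%, against 0.245% of all probe sets, 0.113% up and 0.132% down). It was the mitochondrial arginine enzyme Rars2, at 7.92, 7.96, 7.99 and 8.02 in air and at 7.44, 7.56, 7.67 and 7.79 at 6 ppm. It fell by 0.36 with no overlap (adjusted p = 0.0301, limma). With cyclic loess (0.0663), median centring (0.0552) or a fit of the compared arrays alone (0.163) it was not called. The call ended without any 1 of the 6 ppm animals 284 and 287 or the air animals 49, 50, 52 and 53 (-0.37 to -0.30, adjusted p from 0.076 to 0.197), and without the 6 ppm animal 283 a count of 2 members was called. Fars2, at 7.04 to 7.19 in air and 6.72 to 6.99 at 6 ppm, and Iars2 were also apart and lower, making 3 members with all exposed animals below (4.52% of all probe sets). Nars1 was at 10.09, 10.20, 10.29 and 10.32 in air and at 10.15, 10.18, 10.24 and 10.29 at 6 ppm, groups that overlapped fully.

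At 24 h, 5 days and 8 days, limma called 0 members, with 7, 4 and 2 at an unadjusted p under 0.05. The shares of all probe sets called were 0.00322%, 0.119% (0.0902% up, 0.029% down) and 0.029%. Members with all exposed animals below all air animals were Lars1, Aars1, Nars1 and Wars2 at 24 h (1.91% of all probe sets), Cars2, Fars2 and Rars2 at 5 days (1.76%) and 0 at 8 days (0.641%). At 19 days, 2 members were called (5.71%, against 0.412% of all probe sets, 0.0902% up and 0.322% down), both mitochondrial and lower. Rars2 was at 7.88, 7.97, 8.07 and 8.08 in air and at 7.51, 7.66, 7.70 and 7.75 at 6 ppm, a change of -0.34 with no overlap (adjusted p = 0.0295). Fars2 was at 6.82, 6.95, 7.13 and 7.25 in air and at 6.49, 6.63, 6.71 and 6.83 at 6 ppm, a change of -0.37 with the groups just overlapping (adjusted p = 0.0374). With cyclic loess, median centring or a fit of the compared arrays alone neither was called (adjusted p from 0.0762 to 0.263 for Rars2 and from 0.0824 to 0.334 for Fars2). Neither call held without each animal in turn: Rars2 ended without any 1 of animals 73, 75, 76, 310 and 312 (-0.35 to -0.29, adjusted p from 0.0531 to 0.205), and Fars2 without any 1 of animals 73, 75, 76, 308, 309 and 312 (-0.40 to -0.31, adjusted p from 0.0525 to 0.236). At 19 days Cars1, Cars2, Rars2 and Tars2 had all exposed animals below all air animals (4.62% of all probe sets), and Nars1 and Tars1 had them all above (2.15%).

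The mean of the 6 ppm differences over the 5 times used 20 exposed and 21 air animals and so had smaller errors. Of the 13 mitochondrial genes 6 fell (46.2%), and of the 19 cytosolic and 3 scaffold genes 0 were called, with 1 cytosolic gene at an unadjusted p under 0.05. The share of all probe sets called was 6.37% (2.82% up and 3.54% down). Over all genes with 1 probe set each, 2.58% were up and 5.44% down. The share of up calls among all called probe sets was 44.3% as deposited and 51.8% after cyclic loess. Rars2 changed by -0.23 ± 0.04 (SE, adjusted p = 1.91e-05), Fars2 by -0.24 ± 0.04 (6.69e-05) and Tars2 by -0.16 ± 0.03 (0.0018). Wars2, the tryptophan enzyme, followed at -0.26 ± 0.06 (0.00523), Cars2 at -0.16 ± 0.05 (0.0292) and Nars2, the asparagine enzyme, at -0.19 ± 0.06 (0.036). The chosen probe sets of Wars2 and Nars2 were dim, with mean levels below the median of all probe sets. Just outside the threshold were Iars2 (-0.16, 0.051) and the cytosolic Cars1 (-0.10, 0.0543). The median change was -0.16 over the mitochondrial genes, with 10 of 13 negative, -0.02 over the cytosolic genes, and -0.01 over all genes. These animals and air controls include those of the single times above, so the mean is not separate evidence.

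The times with the largest differences varied among the 6 genes, but an F-test between times, given below, called 0 members. Rars2 had group means of 7.97 ± 0.04, 7.69 ± 0.11, 7.75 ± 0.10, 7.94 ± 0.06 and 8.00 ± 0.09 (SD) in air at 6 h, 24 h, 5 days, 8 days and 19 days, and 7.61 ± 0.15, 7.59 ± 0.06, 7.55 ± 0.06, 7.80 ± 0.07 and 7.66 ± 0.11 at 6 ppm. It was lower at all 5 times, and least so at 24 h, when the air animals themselves were low. Fars2 had air means between 7.02 and 7.13 at all 5 times, and at 6 ppm 6.81 ± 0.12, 7.08 ± 0.06, 6.75 ± 0.17, 6.81 ± 0.11 and 6.67 ± 0.14. It was thus lower at 4 times and not at 24 h. Tars2 had air means of 7.85 to 7.98, and at 6 ppm 7.71 ± 0.18, 7.54 ± 0.19, 7.82 ± 0.09, 7.89 ± 0.12 and 7.70 ± 0.05. Its largest difference, -0.31, was at 24 h, and at 8 days it was 0.04.

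Wars2 had its largest differences at 24 h (-0.37) and 19 days (-0.52), Cars2 at 5 days and 19 days (-0.27 at both), and Nars2 at 6 h (-0.38). Leaving out single times ended some calls in the mean: Tars2 without 24 h (-0.12, adjusted p = 0.0515), Wars2 without 19 days (-0.19, 0.121), Cars2 without 6 h (-0.14, 0.137), 5 days (-0.13, 0.148) or 19 days (-0.13, 0.192), and Nars2 without 6 h (-0.14, 0.258), 24 h (-0.20, 0.0575), 5 days (-0.18, 0.0965) or 8 days (-0.19, 0.0623). Rars2 and Fars2 stayed called without any 1 time. Among single animals, the Cars2 call ended without animal 57, 68 or 298 (adjusted p from 0.0506 to 0.0538) and the Nars2 call without any 1 of 15 of the 41 (up to 0.0839). The other probe set of Tars2 gave -0.15 (adjusted p = 0.0374), and after instillation -0.33 (0.0178), where the chosen one was at -0.19 and not called. That of Wars2 gave -0.01 (0.922) in the 6 ppm mean, but was called lower at 15 ppm (-0.32, 0.0459) and after instillation (-0.35, 0.0117), where the chosen one was not (-0.24 and -0.21). An F-test for a 6 ppm effect that differs between the 5 times called 0 members in limma (0.0129% of all probe sets), with a smallest adjusted p of 0.664.

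**Figure D3:**
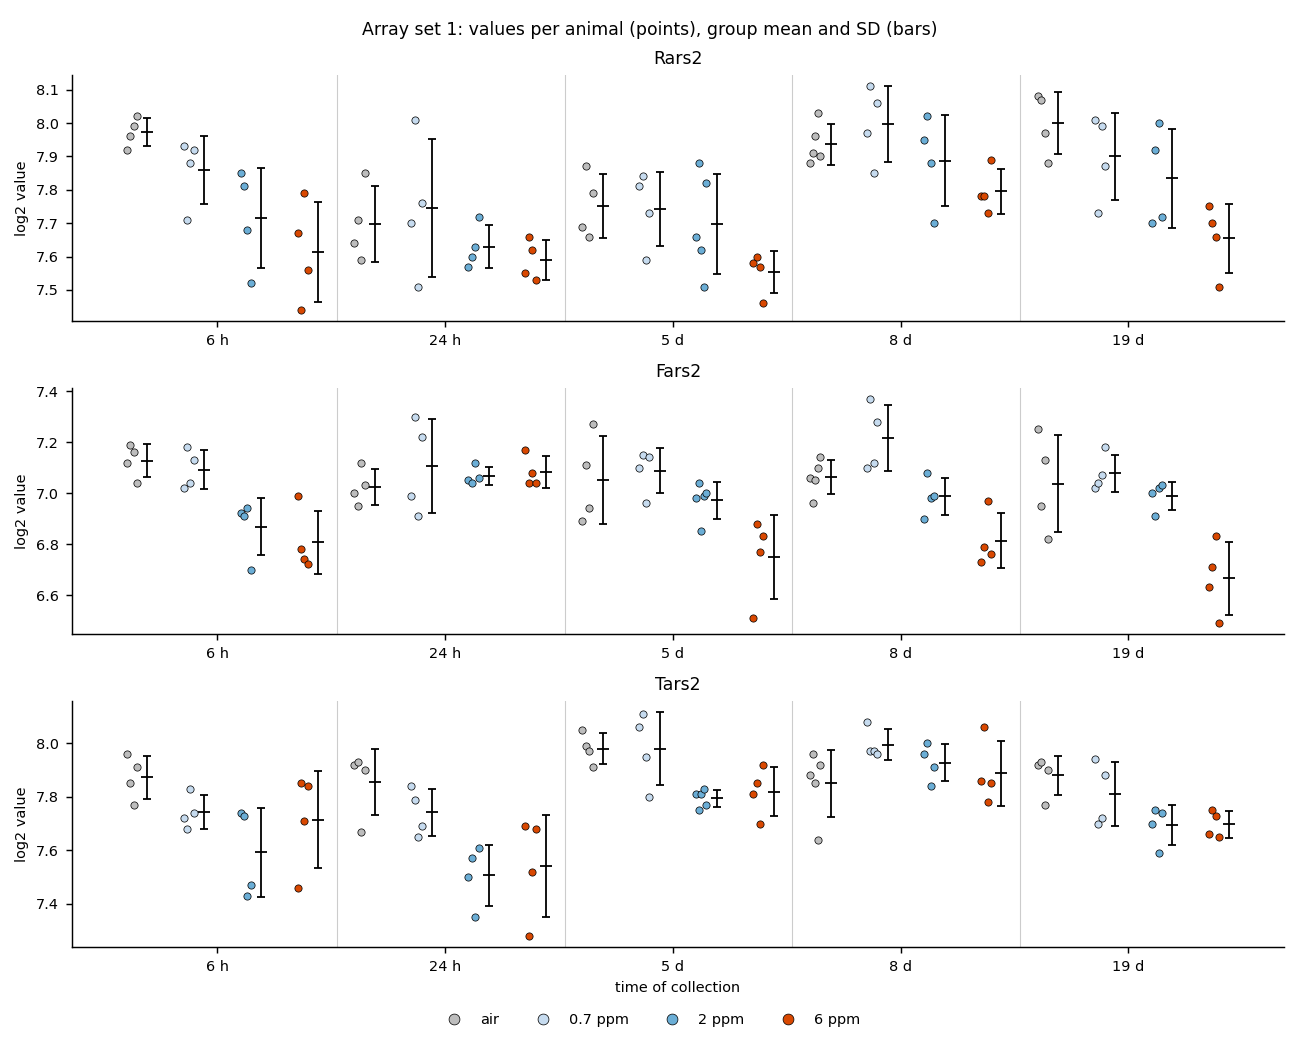
Log2 values of Rars2, Fars2 and Tars2 in each animal (points) of the first array set, by time, for air, 0.7, 2 and 6 ppm. Rars2 at 6 ppm lies below all air animals at 6 h, 5 days and 19 days, and the air animals of Rars2 are themselves lower at 24 h and 5 days (means 7.69 and 7.75) than at 6 h (7.97).

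Macrophage and antigen-presentation markers also differed at 6 ppm. Of 12 genes 3 fell in the mean over 5 times (RT1-Ba by 0.39, RT1-Da by 0.30, Cd74 by 0.22), against 3.54% of all probe sets. Of the 7 neutrophil genes 0 were called in that mean. The log2 summed level of the 12 macrophage and antigen-presentation genes ran from 13.95 to 14.26 in air and from 13.06 to 13.74 at 6 ppm at 6 h. At 19 days it ran from 13.94 to 14.41 against 13.32 to 13.86. The groups overlapped at 24 h (13.73 to 14.09 in air against 13.62 to 14.02) and 5 days (13.78 to 14.29 against 13.56 to 13.93). They also overlapped at 8 days (13.75 to 14.01 against 13.78 to 14.23), when 11 of the 12 changes were positive, with a median of 0.26. At 6 h, 2 of 9 basal and squamous markers were called up in limma (0.113% of all probe sets). Of the 9, 4 were positive, with a median of -0.03 and a range of -1.61 to 2.51. At 19 days the summed level of the basal and squamous markers was 14.36 to 14.90 in air and 14.91 to 15.29 at 6 ppm, and that of the secretory markers 14.92 to 15.08 against 14.84 to 14.90, also without overlap, with 0 called genes in either list in limma at that time (2 of 9 and 1 of 10 at an unadjusted p under 0.05). The part of these cells in the lower mitochondrial values was not tested. At each time 1 exposed animal lacked an RNA integrity number, as did 1 air animal at 24 h. At 6 ppm against air the number was 7.7 to 7.8 against 7.8 to 8.3 at 6 h and 8.2 to 8.6 against 7.5 to 8.2 at 24 h. It was 7.8 to 8.2 against 7.7 to 7.9 at 5 days, 7.7 to 7.8 against 8.2 to 8.8 at 8 days and 8.2 to 8.8 against 8.3 to 8.5 at 19 days. With it as a covariate the Rars2 calls at 6 h and 19 days and those of Rars2, Fars2, Tars2, Wars2 and Nars2 in the mean stayed, and the calls of Fars2 at 19 days (-0.36, adjusted p = 0.0891) and Cars2 in the mean (-0.13, 0.171) ended.

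At 2 ppm limma called 0 members at each of the 5 times, with 3, 4, 3, 1 and 4 at an unadjusted p under 0.05 (6 h, 24 h, 5 days, 8 days and 19 days). The shares of all probe sets called were 0.00322%, 0%, 0.0741% (0.0644% up, 0.00966% down), 0% and 0%. In the mean over the times, 1 of 35 members was called (2.86%, against 0.361% of all probe sets), namely Tars2 at -0.18 ± 0.03 (SE, adjusted p = 0.00136). Its values were 7.43, 7.47, 7.73 and 7.74 at 6 h against 7.77 to 7.96 in air, 7.35, 7.50, 7.57 and 7.61 at 24 h against 7.67 to 7.93, 7.75 to 7.83 at 5 days against 7.91 to 8.05, and 7.59, 7.70, 7.74 and 7.75 at 19 days against 7.77 to 7.93. It was below all air animals at these 4 times (as were 1.93%, 1.39%, 0.767% and 2.83% of all probe sets), and at 8 days the difference was 0.08. The other probe set of Tars2 gave -0.05 (adjusted p = 0.745). The mitochondrial median of the 2 ppm mean was -0.08, with 11 of 13 changes negative, and the cytosolic median was -0.03, with 18 of 19 negative. The air animals are those of the 6 ppm comparison.

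At 0.7 ppm limma called 0 members at every time and in the mean, with 1, 2, 1, 1 and 0 members at an unadjusted p under 0.05 at the 5 times and 1 in the mean. No probe set at all was called in the mean (0%), and at the single times only 5 days had any (0.00644%). The mitochondrial and the cytosolic median of the 0.7 ppm mean were both 0.00.

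A direct test at 6 h of the 15 ppm effect minus the 6 ppm effect called 3 members (8.57%, against 1.19% of all probe sets). These were Nars1 (0.41 ± 0.09, SE, adjusted p = 0.00665), Eef1e1 (0.57 ± 0.13, 0.0102) and Aimp1 (0.45 ± 0.11, 0.019). Tars1 (0.42, 0.0508) and Rars1 (0.63, 0.0907) did not pass the threshold. Without animal 325 of the second set's air group the Nars1 value was 0.33 (0.0609) and that of Eef1e1 0.49 (0.0593), which left 1 called member. The Aimp1 call ended without any 1 of animals 50, 52, 284 and 287 (0.39 to 0.42, adjusted p from 0.0527 to 0.0783). Without animal 286 of the 6 ppm group 5 members were called. Eef1e1 and Aimp1 were also lower in the second set's air group than in the first's (by 0.35 and 0.26), and against the first air group neither was called at 15 ppm (0.19 and 0.11). The 2 doses were run in different array sets, each with its own air group, and the set and the dose cannot be told apart beyond that.

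Set side by side over the 17 dose comparisons, the gap between the mitochondrial and the cytosolic median differed by time as well as by dose. At 6 ppm the mitochondrial and cytosolic medians were -0.21 and -0.02 at 6 h, -0.10 and -0.09 at 24 h, -0.12 and 0.04 at 5 days, 0.01 and 0.02 at 8 days, and -0.18 and 0.02 at 19 days. At 2 ppm they were -0.16 and -0.03, -0.07 and -0.10, -0.08 and -0.03, 0.04 and 0.00, and -0.11 and 0.01 in the same order. At 0.7 ppm the pairs were -0.03 and -0.03, -0.06 and -0.03, 0.04 and 0.02, 0.05 and 0.03, and -0.04 and -0.01. The gap was thus wide at 6 h, 5 days and 19 days of 6 ppm and near 0 at 24 h and 8 days. At 2 ppm it was widest at 6 h and 19 days. Since the groups of a time share air animals, doses of the same time do not repeat each other.

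**Figure D4:**
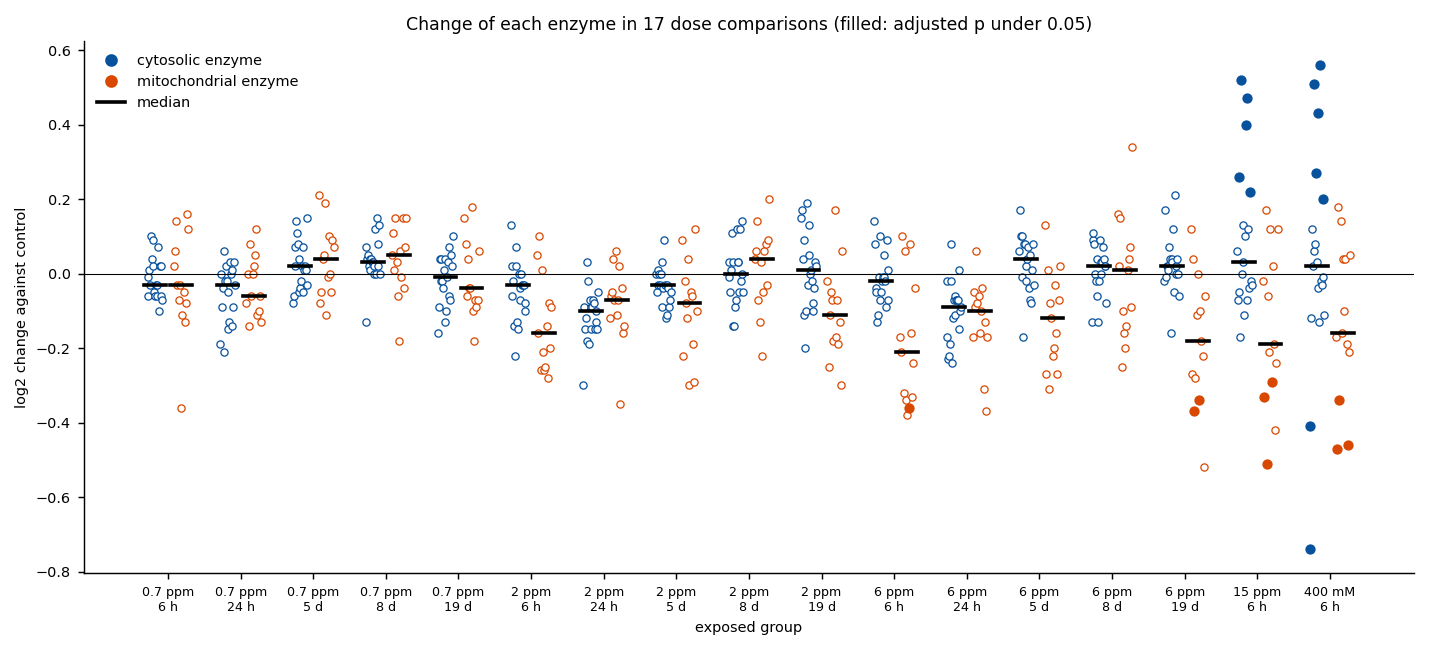
Log2 change of each enzyme (points) in the 17 dose comparisons, cytosolic in blue and mitochondrial in orange, with lines at the medians. The medians lie furthest apart at 15 ppm (0.03 and -0.19), at 6 ppm at 6 h and 19 days (-0.02 and -0.21, 0.02 and -0.18) and at instillation (0.02 and -0.16), and at 0.7 ppm they differ by little (-0.03 and -0.03 at 6 h).

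The same contrast was taken in each animal, as the median over the cytosolic genes minus the median over the mitochondrial genes, each gene first set against its mean in the control animals. This is a description with no test, given for the 15 ppm, instillation and 6 ppm comparisons. The control animals centre near 0 by construction, since each gene was set against their own mean. At 15 ppm it ran from 0.13 to 0.31, against -0.09 to 0.03 in air. After instilled formaldehyde it ran from 0.04 to 0.30, against -0.04 to 0.07 after water. All 15 ppm animals were above all air animals, whereas the instillation groups overlapped. At 6 ppm the exposed animals were above the air animals at 19 days (0.17 to 0.28 against -0.15 to 0.01). At 5 days they ran from 0.06 to 0.35 against -0.03 to 0.06. At 6 h (0.05 to 0.23 against -0.09 to 0.10), 24 h (-0.08 to 0.07 against -0.06 to 0.04) and 8 days (0.03 to 0.11 against -0.09 to 0.19) the groups overlapped.

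**Figure D5:**
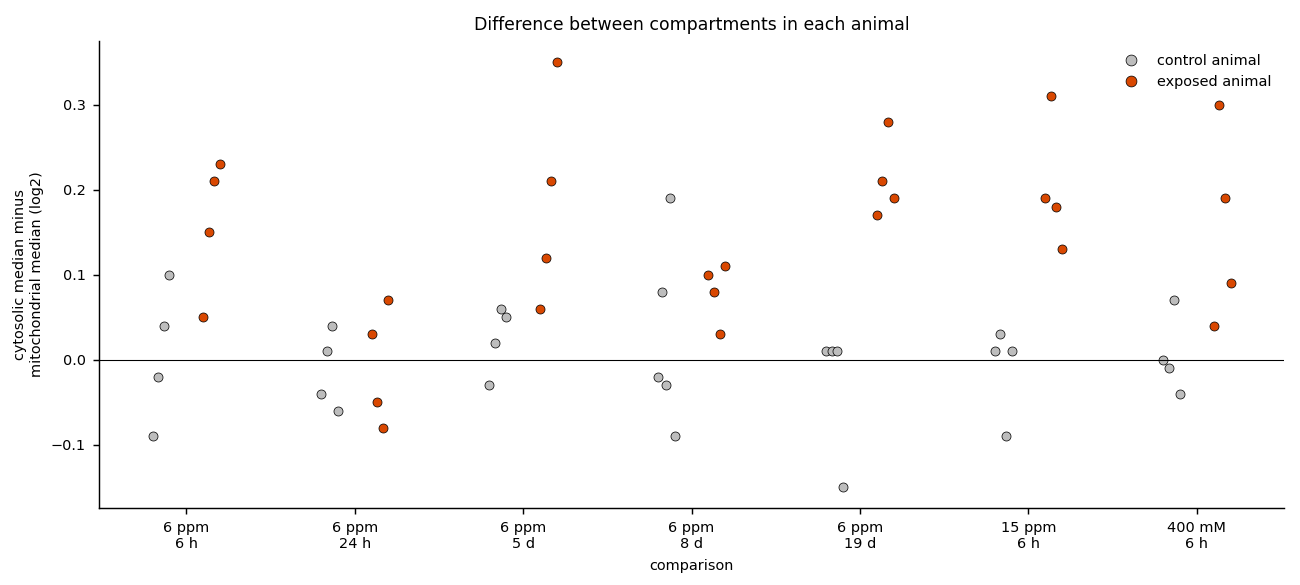
Median log2 value of the cytosolic genes minus that of the mitochondrial genes in each animal (points), each gene relative to its control mean, for 7 comparisons. The control animals lie around 0 by construction. The exposed animals at 15 ppm (0.13 to 0.31) and at 6 ppm at 19 days (0.17 to 0.28) lie above them.

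Within the cytosol the rises were found both among enzymes of the complex and outside it. Of the 7 complex enzymes 2 rose at 15 ppm (Mars1 and Rars1), and after instillation 1 rose (Rars1) and 2 fell (Eprs1 and Iars1). Of the 12 other cytosolic genes 3 rose at 15 ppm (Nars1, Tars1 and Yars1) and 4 after instillation (those and Cars1). The Atf4 target synthetases, a list of 13 cytosolic genes, had 4 up (30.8%) and 0 down at 15 ppm (median 0.06), where 4.32% of all probe sets were called up. After instillation 4 were up (30.8%) and 2 down (15.4%, median 0.03), where 9.83% of all probe sets were up and 12.4% down, so the share down was near that of all probe sets. In the 6 ppm mean 0 were called, with 1 at an unadjusted p under 0.05. By enzyme class, 3 of 10 class I genes and 2 of 9 class II genes rose at 15 ppm, and 3 and 2 after instillation, when 2 class I genes also fell (20%). Gars1 and Kars1, which serve both compartments, ran from -0.15 to 0.09 over the 17 dose comparisons and were called in none. In all, 11 cytosolic genes (differences of -0.24 to 0.19) and 6 mitochondrial genes (-0.34 to 0.34) were called in no dose comparison and in none of the 3 means. Of these, Hars2, the mitochondrial histidine enzyme, had another probe set that was called in the 6 ppm mean (-0.18, adjusted p = 0.0493). Wars1, the tryptophan enzyme and known as inducible by interferon, was among them (-0.04 at 15 ppm and -0.03 after instillation), while 14 of 18 interferon response genes rose after instillation (Cxcl10 by 3.80, Ifit3 by 3.50, Isg15 by 2.74, Oasl by 1.90).

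Genes of the amino acid deprivation response, which Atf4 leads, were described beside the synthetases. The shares of all probe sets to read these and the next counts against were 4.32% up and 4.17% down at 15 ppm, 9.83% and 12.4% after instillation, and 2.82% and 3.54% in the 6 ppm mean. Over all genes with 1 probe set each they were 5.23% and 5.86%, 11.1% and 15.1%, and 2.58% and 5.44%. Of 21 genes 4 rose (19%) and 1 fell (4.76%) at 15 ppm, with 11 of the 21 changes positive and a median of 0.03. Atf4 itself was higher by 0.82, Ppp1r15a, which reverses eIF2 phosphorylation, by 1.66, the stress factor Ddit3 by 2.15 and Atf3 by 2.58, and Eif2ak3, an eIF2 kinase of the endoplasmic reticulum, fell by 0.44. After instillation 7 rose (33.3%) and 4 fell (19%), with 15 of the 21 changes positive and a median of 0.24. Ppp1r15a was at 2.00, Atf4 at 1.06, Ddit3 at 2.06 and Atf3 at 2.64. Those that fell were Eif2ak4 (-0.40), which senses uncharged tRNA, its partner Gcn1 (-0.39), Eif2ak3 (-0.39) and Eif2ak1 (-0.26). In the 6 ppm mean only Eif2ak3 was called (-0.22), with 8 of the 21 changes positive and a median of -0.03. Of 12 amino acid transporters 5 rose (41.7%) at 15 ppm, with Slc7a11, the cystine carrier, at 2.54, Slc1a5 at 0.69, Slc43a1 at 0.50, Slc38a2 at 0.42 and Slc3a2 at 0.24. After instillation 5 rose (Slc7a11 at 1.92, Slc38a2 at 0.83, Slc7a1 at 0.63, Slc1a5 at 0.61 and Slc3a2 at 0.29) and Slc1a4 fell (-0.88), and in the 6 ppm mean 3 rose (Slc7a11 at 1.12, Slc1a4 at 0.35, Slc38a2 at 0.22). Of 14 amino acid synthesis genes, Mthfd2 rose (0.33) and Glul, glutamine synthetase, fell (-0.47) at 15 ppm, 2 rose and 2 fell after instillation (Mthfd2 0.47, Shmt2 0.39, Glul -1.08, Got1 -0.45), and in the 6 ppm mean Mthfd2 rose (0.16). The share of this last list called, 14.3%, 28.6% and 7.14%, was not far from that of all probe sets, 8.49%, 22.2% and 6.37%.

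Translation factors of both compartments were counted in the same way. Of 26 cytosolic translation factors 9 rose (34.6%) and 0 fell at 15 ppm (Eif2s2 0.36, Eif3d 0.30, Eif6 0.54 and Eif2s1 0.41 among them), 11 rose (42.3%) and 0 fell after instillation (Eif3d 0.39, Eif6 0.64, Eif2s2 0.39, Etf1 0.55), and 0 were called in the 6 ppm mean. Their medians were 0.18, 0.16 and 0.02. Of 20 mitochondrial translation factors 1 rose and 3 fell at 15 ppm (Pus1 0.38, Lrpprc -0.30, Mtrfr -0.37, Gtpbp3 -0.37), 2 rose and 3 fell after instillation (Pus1 0.46, Ptcd3 0.28, Lrpprc -0.43, Mtrfr -0.36, Mtfmt -0.28), and 0 rose and 5 fell in the 6 ppm mean (Gtpbp3 -0.22, Mtrf1l -0.24, Mtif2 -0.15, Mtrf1 -0.14, Mtrfr -0.13). Their medians were -0.06, -0.04 and -0.07. After instillation the shares up (10%) and down (15%) were near those of all probe sets, and at 15 ppm and in the 6 ppm mean 15% and 25% fell. Of 26 genes of tRNA processing and export 6 rose (23.1%) and 1 fell at 15 ppm, 8 rose (30.8%) and 2 fell after instillation and 2 rose (7.69%) and 1 fell in the 6 ppm mean. Pop1, a subunit of the RNases that cut tRNA precursors, was at 0.57 at 15 ppm and 0.46 after instillation, Clp1, a kinase of tRNA splicing, at 0.77 and 1.22, and Trmt61a and Trmt6, the subunits of a tRNA methyltransferase, at 0.71 and 0.49 at 15 ppm. Elp3 fell in all 3 comparisons (-0.23, -0.31 and -0.12), Trmt5 fell after instillation (-0.19), and Rpp25 (0.19) and Nsun2 (0.14) rose in the 6 ppm mean.

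Some members were called among the air animals alone, across the times at a share near that of all probe sets. For the 5 times of the first set, an F-test in limma called 5 of 35 members. It called 11.4% of all probe sets, and 1819 of 14217 genes with 1 probe set each. The called members were Nars2, Rars2, Eprs1, Yars1 and Iars2 (adjusted p from 0.00134 to 0.0373). Without animal 53, 73 or 76 the count was 3. Eprs1 had air means of 9.19, 9.64, 9.59, 9.21 and 9.62 at 6 h, 24 h, 5 days, 8 days and 19 days, and Nars2 of 5.40, 5.01, 5.42, 5.10 and 4.81. The air means of Eprs1 thus spanned 0.45 and those of Nars2 0.61. Between the air groups of the 2 array sets at 6 h, 3 members were called (4.7% of all probe sets), all lower in the second set: Nars2 by 0.57 ± 0.13 (adjusted p = 0.00492), Eef1e1 by 0.35 ± 0.09 (0.0145) and Aimp1 by 0.26 ± 0.08 (0.0332). Without animal 53 of the first set only 1 was called, and Nars2 was at -0.39 (0.0975) and Eef1e1 at -0.29 (0.0875). Without animal 325 of the second set Eef1e1 was at -0.27 (0.12) and Aimp1 at -0.27 (0.0667). The Aimp1 call also ended without any 1 of animals 50, 52, 321 and 323 (adjusted p from 0.0729 to 0.125).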

How the data were processed

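RNA of nasal epithelial cells was measured on 98 Affymetrix Rat230_2 arrays, 1 animal each. The deposited values, 1 per probe set and array, were taken as log2 expression from their range (2.67 to 14.83). The summarisation, background correction and normalisation that made them are not given in the sources used here, so their effect on these differences is unknown. Values were used as deposited. Of 31099 probe sets, 57 control probe sets were left out. Of the 31042 tested, 20826 had 1 gene symbol in the platform annotation, 436 several and 9780 none. One linear model of all 24 groups (74 residual degrees of freedom) was fitted with limma 3.58.1 in R 4.3.3 (package data.table, version 1.17.8), with Benjamini-Hochberg adjustment over all probe sets and two-sided tests, called at 0.05. The fitting script was tested on simulated data. The RNA integrity number, known for 85 arrays, was 7.2 to 8.8. No spot-level files were used, so precision rests on the number of animals.

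The members and gene lists were chosen with earlier results of these data known. Values of every animal are given for up to 14 members with the smallest adjusted p in any dose comparison and for any called in 2 or more. From each list, up to 4 genes with the smallest p per comparison were named, and any gene behind a count of 5 or fewer. Promoters were searched with Python 3.11.15. The labels carry 8 days, a time that the series design text does not list, and 1 treatment field of the 0.7 ppm group at 8 days reads 0.07 ppm. It was kept as 0.7. Alternatives tried were cyclic loess, median centring, a filter on dim probe sets, a fit of the compared arrays alone, another prior, array weights, the RNA integrity number as covariate, the mean of a gene's probe sets, other control groups, and leaving out each animal or, chosen after the data were seen, each time.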

Additional observations from a re-analysis of the deposited data

Results flagged for a closer look

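A gap test for a single animal far from its group (Dixon's, which chance passes in about 1 of 20 groups) was run on 113 groups of values of the members, and 6 passed. In air at 8 days, Cars2 was at 7.06 in animal 68, with the next animal at 6.61. After water, Cars2 was at 6.88 in animal 356, with the next at 6.69. In air of the second array set, Nars1 was at 9.94 in animal 325, below the next at 10.25. In air at 5 days, Nars2 was at 5.64 in animal 60, with the next at 5.37. In air at 24 h, Tars2 was at 7.67 in animal 57, below the next at 7.90. At 6 ppm and 24 h, Wars2 was at 5.81 in animal 292, with the next at 5.60.

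For 4 members the direct tests of a difference between exposures passed the threshold in limma, and each call ended when single animals were left out: Nars1 and Eef1e1 without animal 325, Aimp1 without any 1 of 4 animals and Eprs1 without any 1 of 7. The 15 ppm effect minus the instillation effect was 0.80 for Eprs1, whose other probe sets were not called (0.15, 0.96 and 0.13). The 15 ppm effect minus the 6 ppm effect at 6 h was 0.41 for Nars1, 0.45 for Aimp1 and 0.57 for Eef1e1. Aimp1 and Eef1e1 also differed between the air groups of the 2 array sets (-0.26 and -0.35), and at 15 ppm against the first set's air group they were at 0.11 and 0.19 and not called. At 6 ppm, Nars1 was lower than all air animals at 24 h (difference -0.11) and higher than all at 19 days (0.12). That pair itself was not tested, and an F-test over the 5 times gave an adjusted p of 0.921.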

How the results depend on the processing

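No called gene changed sign under the alternatives, while the cytosolic medians, near 0 throughout, went below 0 in some. Counts of called members were 8 to 12 at 15 ppm and 8 to 15 at instillation, where a fit of the compared arrays alone gave 8. The 6 ppm counts at 6 h and at 19 days were 0 with cyclic loess, median centring or a fit of the compared arrays alone, and with array weights 2 and 1. Array weights also gave 1 at 6 ppm and 5 days, 6 for 15 ppm against 6 ppm, 1 for water, 10 across the air times (8 with the mean of a gene's probe sets) and 5 between air sets. With the RNA integrity number the counts were 1 at 6 ppm and 24 h, 1 at 2 and 0.7 ppm and 1 between air sets. The route difference had 0 in a fit of the compared arrays alone. The cytosolic median at 15 ppm was 0.09 with loess, 0.09 with the RNA integrity number, 0.08 against the first air set and 0.06 without Gars1 and Kars1, and the mitochondrial one -0.11 with loess and -0.24 against the first air set. At instillation the medians were 0.11 and -0.05 with loess, and 0.15 and -0.05 against air. The cause was not tested.

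With 1 animal left out, the counts ran from 8 to 11 at 15 ppm, 9 to 15 at instillation, 0 to 2, 0 to 1, 0 to 0, 0 to 0 and 0 to 3 at 6 ppm (6 h to 19 days), 0 to 1 at 2 and 0.7 ppm, 6 to 8 for the 3 means, 0 to 0 for water, 0 to 1 for the route difference, 1 to 5 for 15 ppm against 6 ppm, 3 to 5 across air times, 0 to 0 for the 6 ppm effect across times and 1 to 3 between air sets. The medians (cytosolic, then mitochondrial) ran from -0.01 to 0.07 and -0.20 to -0.12 at 15 ppm, -0.02 to 0.05 and -0.16 to -0.08 at instillation, and -0.03 to -0.01 and -0.17 to -0.15 in the 6 ppm mean. The 1 call at 24 h of 6 ppm, and that at the lower doses, came without air animal 57. No paired analysis was possible because no animal appears in more than 1 group. The filter on dim probe sets left out Aars2, Ears2, Nars2 and Wars2. Groups of 4 or 5 animals limit the precision, and the deposited values carry no detection calls.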
